A study of Mus musculus with 8 samples.

Results

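The integrated stress response genes examined here were Atf4, Atf3, Ddit3, Trib3, Asns, Chac1, Sesn2, Herpud1 and Hspa5, taken as every probe set that the array's annotation ties to 1 of these symbols alone. All 9 genes were measured, by 16 of the 22690 probe sets. With the brightest probe set kept for each gene, they were 9 of 12393 genes tested. RNA came from mouse J1 embryonic stem (ES) cells and was hybridized to Affymetrix mouse arrays, with 2 arrays in each of 4 groups. The groups were undifferentiated cells with the Fbxl19 hairpin shRNA1, undifferentiated cells with the Fbxl19 hairpin shRNA2, cells on day 4 of differentiation, and undifferentiated cells with a control hairpin, shControl. The protocol gives 1 culture medium for all samples, with serum and leukemia inhibitory factor; it does not say how the day 4 cells were differentiated or whether they carried a hairpin. Whether the hairpin cells were clones or pools is not given in the sources used here. The annotation assigned none of the probe sets to Fbxl19, and the depth of the knockdown was therefore not measured. The sample titles name Fbxl19 for all 4 knockdown arrays, while a second label names another gene of the Fbxl family on 3 of them; the titles were followed.

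The integrated stress response begins when 1 of several kinases phosphorylates the translation factor eIF2, as happens on amino acid shortage (GCN2), unfolded protein in the endoplasmic reticulum (ER) (PERK), double-stranded RNA (PKR) or lack of haem (HRI). Most translation slows, while the mRNA of the transcription factor ATF4 is translated better, and ATF4 then switches on genes for amino acid supply, redox balance and, if stress lasts, cell death. ER stress has 2 further arms, ATF6 and XBP1, which raise ER chaperones such as Hspa5. Short hairpins are double-stranded RNA and pass through the cell's microRNA machinery, so these genes were read as a check for stress from hairpins. The check is partial, because shControl is a hairpin too and stress common to all hairpins would not show against it. In a difference from shControl, an effect of the hairpin and one of the knockdown cannot be told apart.

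ATF4 binds DNA together with C/EBP-family partners at the C/EBP-ATF response element, and the members differ in whether their promoters hold its core letters TGATGNAA. In the RefSeq promoters of assembly GRCm38.p6, which reach from 250 bases before to 50 bases after the gene's start, these letters occurred on either strand in 5 of the 9 members and in 3.97% of all 32851 promoters. The stretches around the matches are shown to set out which members hold the letters and how their surroundings differ, with the match in capitals and each sequence read along the gene's own strand.
Atf3, chr1:191183410-191183469, minus strand: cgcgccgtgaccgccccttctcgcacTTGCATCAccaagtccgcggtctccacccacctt
Trib3, chr2:152344028-152344057, minus strand: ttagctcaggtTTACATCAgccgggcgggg
Asns, chr6:7693214-7693243, minus strand: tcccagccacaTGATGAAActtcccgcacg
Chac1, chr2:119351023-119351082, plus strand: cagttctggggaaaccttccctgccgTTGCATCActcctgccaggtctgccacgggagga
Herpud1, chr8:94386291-94386350, plus strand: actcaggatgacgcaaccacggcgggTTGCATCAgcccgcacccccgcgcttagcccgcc
In Atf3, Trib3, Chac1 and Herpud1 the letters are those of the opposite strand, and in Asns those of the gene's own strand. The Atf3, Asns, Chac1 and Herpud1 matches lay before the start site and the Trib3 match just after it. Hspa5 instead held the ER stress response element, CCAAT and CCACG separated by 9 bases, through which ATF6 acts. It was the only member with this element, which occurred in 0.119% of all promoters.
Hspa5, chr2:34772004-34772063, plus strand: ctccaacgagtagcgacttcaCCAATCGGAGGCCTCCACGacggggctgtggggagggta
The cyclic AMP response element TGACGTCA was found in 0 of the 9 members and in 1.79% of all promoters. Atf4, Ddit3 and Sesn2 held none of the 3 motifs, which says only that these letters were not in this window. A match is a description of the sequence and shows no binding.

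Pluripotency markers of ES cells were high on the undifferentiated arrays. The mean level of that list was 10.84 to 11.08 there, and that of the differentiation list 4.94 to 5.09. All 14 pluripotency markers lay above the lower quartile of every array, and 5 to 7 of 11 fibroblast and feeder markers lay below it. Of 13 differentiation markers, 2 to 3 lay below it, at day 4 as in the other groups, so the quartile alone does not set ES cells apart. At day 4, 11 of the 14 pluripotency markers fell. The arrays of a group differed across all genes by an SD of 0.20 for shRNA1, 0.22 for shRNA2, 0.41 for day 4 and 0.31 for shControl (replicate 2 minus 1, log2). The quartiles of the second shControl array (3.78, 5.80 and 8.17) lay outside those of the other 7 arrays. Of 2 signs of RNA quality, the level of the 3' minus that of the 5' actin control was 0.70 to 0.76 on the 4 knockdown arrays, 0.73 and 0.65 on the day 4 arrays, and 0.60 and 0.54 on the shControl arrays. The same measure for Gapdh overlapped, at 0.18 to 0.27 on the knockdown arrays, 0.26 and 0.20 on the day 4 arrays, and 0.17 and 0.26 on the shControl arrays. The part of RNA quality in the results below was not tested. In RNA of whole cultures, fewer cells expressing a gene and less RNA per cell cannot be told apart.

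No stress gene passed the test under either Fbxl19 hairpin. With limma and Benjamini-Hochberg adjustment over all genes (called at an adjusted p under 0.05), 0 of the 9 members were called for both hairpins together against shControl, where 0.0726% of all genes were called. For shRNA1 against shControl 0 were called, with 0.242% of all genes, and for shRNA2 against shControl 0, with 0% of all genes. At an unadjusted p under 0.05, 1 member passed for both hairpins, 1 for shRNA1 and 0 for shRNA2, where 8.42%, 9.82% and 5.1% of all genes passed. The member in both cases was Herpud1, which was lower than in shControl. The median change of the members was -0.08 for both hairpins, -0.10 for shRNA1 and 0.15 for shRNA2, on the log2 scale. The median of all genes was -0.0042, -0.0009 and -0.0073 in the same comparisons.

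The transcription factors overlapped with shControl, apart from Atf4 under shRNA1. Atf4, the factor at the centre of the response, had log2 levels of 10.60 and 10.81 in shRNA1, 10.77 and 11.13 in shRNA2, and 10.81 and 11.26 in shControl. Both shRNA1 arrays lay below both shControl arrays, although the nearest pair agreed to 2 decimals, and the shRNA2 arrays overlapped them. Since ATF4 is controlled mainly through translation, its mRNA is only part of its activity, and the targets below carry more of the reading. Atf3, a stress-induced factor that binds with ATF4, had levels of 4.51 and 4.26 in shRNA1, 4.54 and 4.72 in shRNA2, and 4.55 and 4.41 in shControl. Its groups overlapped in both comparisons with shControl. Ddit3 encodes CHOP, a factor tied to cell death under lasting stress. Its levels were 6.28 and 6.53 in shRNA1, 6.33 and 7.08 in shRNA2, and 6.30 and 6.36 in shControl. The second shRNA2 array was the highest of the 6, while the first shRNA2 array lay between the shControl arrays, so the Ddit3 change under shRNA2 (0.38 ± 0.73, SE, log2) rested on 1 array.

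The targets of ATF4 gave no common direction. Trib3, a pseudokinase that feeds back on ATF4 signalling, had 7.83 and 8.01 in shRNA1, 8.11 and 8.79 in shRNA2, and 8.20 and 8.38 in shControl. It was below both shControl arrays under shRNA1 and on either side of them under shRNA2. Asns, asparagine synthetase, had 11.80 and 11.85 in shRNA1, 11.47 and 11.86 in shRNA2, and 11.50 and 11.40 in shControl. It was above both shControl arrays under shRNA1, by 0.38 ± 0.49, and overlapped them under shRNA2. Chac1, which degrades glutathione, had 6.12 and 7.04 in shRNA1, 6.66 and 7.64 in shRNA2, and 6.70 and 7.38 in shControl. Its arrays overlapped in both comparisons, and the arrays of each group were far apart. Sesn2, a sestrin that restrains mTORC1 and answers to both ATF4 and p53, had 8.55 and 8.32 in shRNA1, 8.86 and 8.68 in shRNA2, and 8.14 and 8.41 in shControl. It was above both shControl arrays under shRNA2 (0.50 ± 0.25, adjusted p = 0.973) and overlapped them under shRNA1.

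The ER genes stayed below the higher shControl array under both hairpins. Herpud1, an ER membrane protein of ER-associated degradation, had 6.87 and 6.91 in shRNA1, 6.97 and 7.24 in shRNA2, and 7.19 and 7.76 in shControl. All 4 knockdown values lay below the higher shControl array, and both shRNA1 values below both. The change of Herpud1 was -0.47 ± 0.19 for both hairpins (adjusted p = 0.549) and -0.58 ± 0.21 for shRNA1 (adjusted p = 0.431). With 1 array left out it ranged from -0.76 to -0.19 for both hairpins and from -0.87 to -0.30 for shRNA1. The second Herpud1 probe set gave smaller changes, -0.15 ± 0.13 for both hairpins and -0.17 ± 0.15 for shRNA1. Hspa5, the ER chaperone BiP, had 12.08 and 12.11 in shRNA1, 12.10 and 12.13 in shRNA2, and 12.04 and 12.32 in shControl. The 4 knockdown arrays lay within the span of the 2 shControl arrays. For shRNA1 against shControl, the arrays of 4 members (Atf4, Trib3, Asns and Herpud1) did not overlap, where 43.4% of all genes did not overlap; for shRNA2 it was Sesn2 alone, where 33.1% did not. In the mean of both hairpins against shControl no member was free of overlap, where 20.1% of all genes were.

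**Figure D1:**
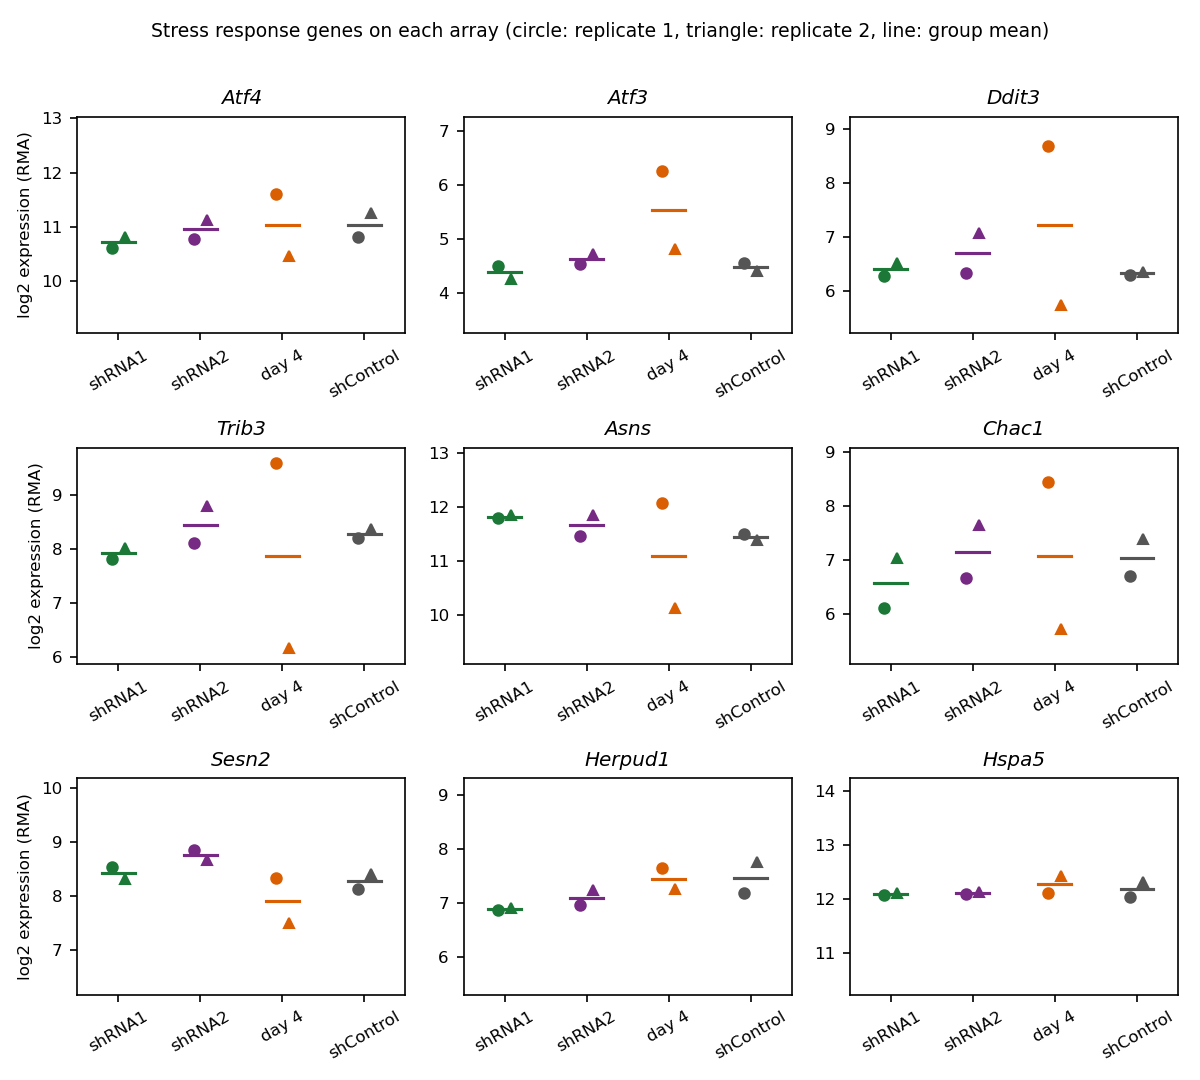
Log2 level of each of the 9 genes on each array, 1 panel a gene, with groups along the horizontal axis (shRNA1, shRNA2, day 4, shControl) and the replicate number marked by the symbol. The 6 undifferentiated arrays lie close together in most panels, while the 2 day 4 arrays of Ddit3, Trib3 and Chac1 lie 2.94, 3.43 and 2.72 apart.

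These intervals depended on the spread that the 4 groups share, and for the ATF4 genes that spread came largely from the day 4 arrays. With all 8 arrays the SE of the Trib3 change for 1 hairpin was 0.84 and that of Ddit3 0.73. With the 3 undifferentiated groups alone, a fit added after the data had been seen, they were 0.21 and 0.22, and the changes themselves stayed as they were. Still 0 members were called, for both hairpins (0.436% of all genes called), for shRNA1 (0.912%), for shRNA2 (0.0968%) and between the hairpins (0.299%). In that fit the 95% interval of Ddit3 reached up to 1.49-fold over shControl for shRNA1 and 1.84-fold for shRNA2. The upper bound of Trib3 was 1.08-fold for shRNA1 and 1.55-fold for shRNA2, and that of Atf4 1.07-fold and 1.26-fold. For these probe sets, the brightest of each gene, larger rises lay outside the intervals and smaller ones within them. The Atf4 bounds do not hold for its other probe sets alike. With all 8 arrays, its second probe set gave 0.24 ± 0.39 for shRNA1 and 0.41 ± 0.39 for shRNA2. Its dimmest gave -0.24 ± 0.22 and -0.18 ± 0.22, and its brightest -0.33 ± 0.33 and -0.09 ± 0.33. The widest intervals were those of Chac1, up to 1.32-fold for shRNA1 and 1.95-fold for shRNA2, and they include the difference between its replicate arrays described further on. In the same fit Sesn2 under shRNA2 had the smallest p of the 9 members, 0.00958, and an adjusted p of 0.440.

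**Figure D2:**
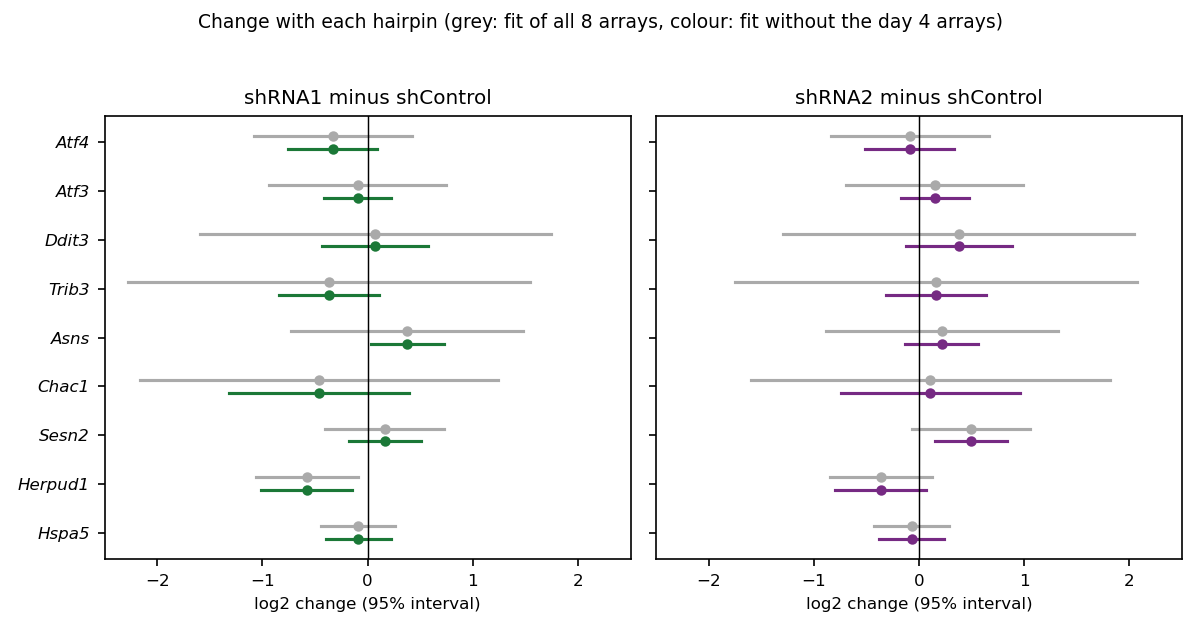
Log2 change of each gene against shControl for shRNA1 and shRNA2, with 95% intervals from limma, from all 8 arrays and from the 3 undifferentiated groups alone. The points are the same in both fits and the intervals are narrower without the day 4 arrays; the interval of Herpud1 under shRNA1 lies below 0 and those of Asns under shRNA1 and Sesn2 under shRNA2 lie above 0 in the fit without day 4, before any adjustment over genes.

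Set against each other, the hairpins differed by values above 0 in 8 of the 9 members (shRNA2 minus shRNA1), with a median of 0.24 where all genes had 0.00. None was called, and 0.105% of all genes were. Chac1 (0.57 ± 0.75) and Trib3 (0.53 ± 0.84) had the largest values and Asns (-0.16 ± 0.49) the only one below 0. The arrays of Atf3, Trib3, Sesn2 and Herpud1 did not overlap, each higher in shRNA2, where 21.9% of all genes were higher in shRNA2 without overlap. Without the day 4 arrays the 95% interval of the Trib3 difference ran from 0.05 to 1.00, with an adjusted p of 0.565.

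For 6 members other probe sets gave a second reading of the same mRNA. The second probe sets of Trib3, Asns, Sesn2 and Herpud1 placed the day 4 arrays in the same order as the first. For Trib3 they read 8.30 and 6.04 at day 4, against 7.19 and 7.66 in shControl, and for Asns 11.88 and 10.02 at day 4, against 11.25 and 11.47 in shControl. On the shControl arrays the probe sets of Atf4, Hspa5, Sesn2 and Asns disagreed on which array was higher. The second Atf4 probe set read 9.37 on the first shControl array and 8.45 on the second, where the brightest one read 10.81 and 11.26. The second Hspa5 probe set read 11.07 and 10.58, where the brightest one read 12.04 and 12.32. The second Sesn2 probe set read 7.38 and 7.02, where the brightest one read 8.14 and 8.41, and the reversal in Asns is seen in the values above. When all probe sets of a gene were averaged, the small negative change of Hspa5 for both hairpins (-0.08) became 0.02, and that of Atf4 for shRNA2 (-0.09) became 0.05. The remaining Atf4 probe set lay below the lower quartile of all probe sets on 2 of the 8 arrays.

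No gene of the wider ATF4 pathway was called under the hairpins either. For both hairpins 0.0726% of all genes were called, so 0 calls in lists this small say little about the pathway. Over all genes 49.1% had values above 0. Of 12 measured genes of eIF2 control, which include the kinases themselves, 0 were called for both hairpins against shControl; Eif2ak4 (GCN2) had 0.31 ± 0.14 and Eif2ak2 (PKR) -0.26 ± 0.13. Of 12 further regulators downstream of ATF4, 0 were called, with a median of 0.03 (-0.08 for shRNA1 and 0.28 for shRNA2 taken singly). The largest value was that of Ddit4, an inhibitor of mTORC1 that hypoxia and p53 also induce, at 1.77 ± 0.36 (adjusted p = 0.170). Fgf21, a secreted stress hormone, had -0.25 ± 0.16. Of 10 enzymes of amino acid and one-carbon synthesis 0 were called, and 8 had values below 0; Got1 had -0.43 ± 0.12 and Cbs 0.47 ± 0.14. Of 9 amino acid transporters 0 were called, with Slc1a5 at -0.38 ± 0.16 and Slc7a3 at -0.13 ± 0.13. Of 11 tRNA synthetase and tRNA export genes 0 were called, and 10 had values below 0, among them Wars (-0.25 ± 0.12) and Tars (-0.15 ± 0.12). Between the hairpins (shRNA2 minus shRNA1), values above 0 were found in 11 of 12 regulators and 11 of 11 tRNA synthetase and export genes. They were found in 7 of 10 enzymes and 3 of 9 transporters, where 50% of all genes had them, and 0 were called in each list.

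The other stress pathways were read the same way, beside the same share of all genes. Of 22 ER chaperone and degradation genes 0 were called, with a median of -0.06, and Calr had -0.27 ± 0.11 and Pdia3 -0.26 ± 0.14. Of 11 heat shock genes 0 were called, with Hsph1 at -0.43 ± 0.26 and Hspd1 at -0.21 ± 0.13. Of 16 genes of the double-stranded RNA and interferon response 0 were called, with a median of -0.02; Bst2 had 0.51 ± 0.15 and the RNA sensor Ifih1 0.55 ± 0.20. The p53 and hypoxia lists had higher medians. Of 18 p53 targets, 2 were called, both higher, Ccng1 (1.18 ± 0.12, adjusted p = 0.0122) and Btg2 (0.95 ± 0.12, adjusted p = 0.0460), where 0.0726% of all genes were called, and the list's median was 0.32. Without the day 4 arrays 5 of the 18 were called, where 0.436% of all genes were, with Pmaip1 (1.18 ± 0.13) and Perp (0.87 ± 0.12) among them, and 3 for each hairpin alone. The 14 hypoxia genes had a median of 0.50 and 0 were called; Slc2a1, the glucose carrier GLUT1, had 0.63 ± 0.24. Since Sesn2 and Ddit4 belong to more than 1 of these pathways, their values under the hairpins stand beside those of the p53 and hypoxia lists, whose part in them was not tested.

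**Figure D3:**
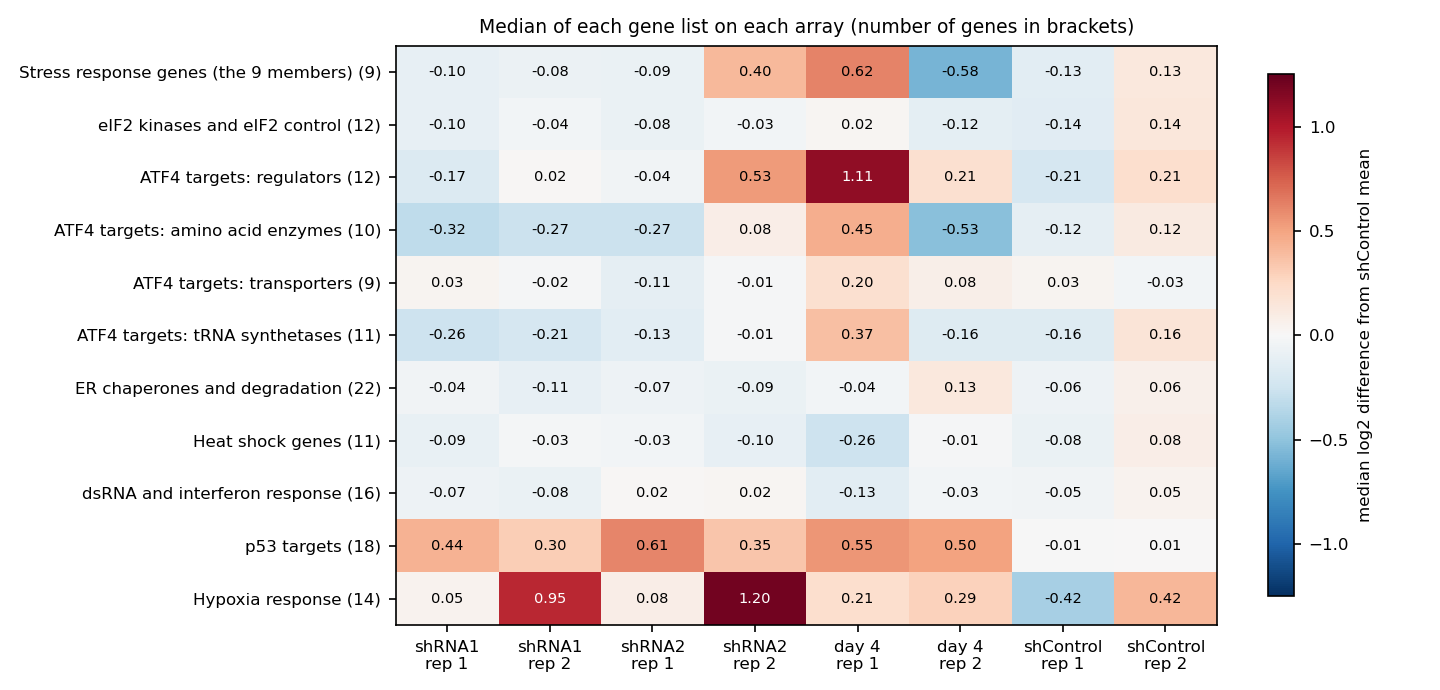
Median over the genes of each list, on each array, of the log2 level minus the mean of the shControl arrays, with arrays in columns and lists in rows. The p53 row is above 0 on all 6 knockdown and day 4 arrays, the hypoxia row is at 0.95 and 1.20 on the second arrays of shRNA1 and shRNA2, and the ATF4 regulator row is highest on the first day 4 array, at 1.11.

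At day 4 the stress genes divided the 2 arrays of the group rather than the group from its control. Ddit3 had 8.69 on the first day 4 array and 5.75 on the second, against 6.30 and 6.36 in shControl. Trib3 had 9.59 and 6.17 at day 4, against 8.20 and 8.38 in shControl. Chac1 had 8.44 and 5.72 at day 4, against 6.70 and 7.38 in shControl. In each of these genes 1 day 4 array was the highest and the other the lowest of all 8 arrays. Asns had 12.07 and 10.13 at day 4, against 11.50 and 11.40 in shControl. Atf4 had 11.60 and 10.46 at day 4, against 10.81 and 11.26 in shControl. These genes showed the same order, so that in 5 of the 9 members the first day 4 array lay above, and the second below, all 6 undifferentiated arrays, where 1.73% of all genes did so.

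The remaining members divided the day 4 arrays less. Atf3 had 6.25 and 4.82 at day 4, against 4.55 and 4.41 in shControl, and was the only member higher on both day 4 arrays than on every undifferentiated array. Sesn2 had 8.33 and 7.50 at day 4, against 8.14 and 8.41 in shControl. Herpud1 had 7.65 and 7.26 at day 4, against 7.19 and 7.76 in shControl. Both were higher on the first day 4 array. Hspa5 had 12.12 and 12.42 at day 4, against 12.04 and 12.32 in shControl, and was the 1 member higher on the second day 4 array.

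The gap between the day 4 arrays (replicate 2 minus 1, log2) was -3.43 for Trib3, -2.94 for Ddit3, -2.72 for Chac1, -1.94 for Asns, -1.43 for Atf3 and -1.15 for Atf4. In these 6 members the first array was at least 2-fold higher, as in 1.72% of all genes. Ranked over 12393 genes from the most negative gap, Trib3 stood in place 2, Ddit3 in place 7 and Chac1 in place 10. Nupr1, a stress-induced nuclear protein downstream of ATF4, was in place 1 with -3.83, Vldlr in place 5 with -3.05 and Atf5 in place 14 with -2.42. The gaps of Sesn2 (-0.83) and Herpud1 (-0.39) were smaller and that of Hspa5 was 0.30. Over all genes the SD of the gap was 0.41 and its median size 0.20, against a median size of 1.43 for the members.

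**Figure D4:**
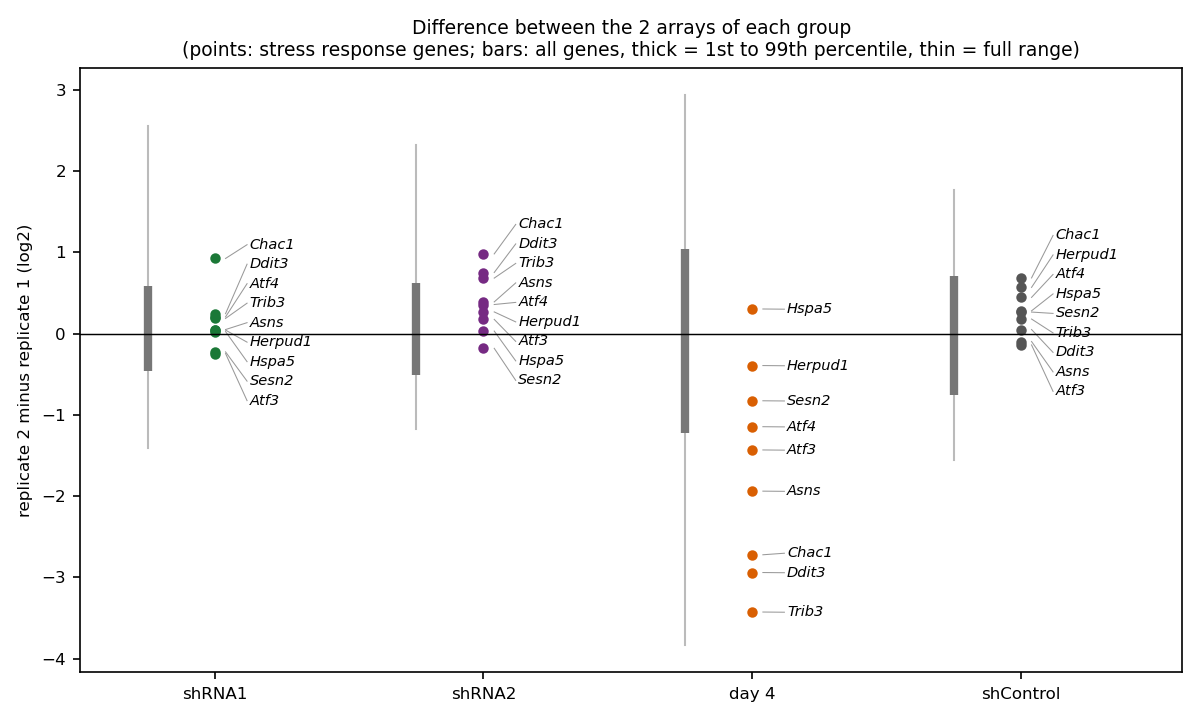
Replicate 2 minus replicate 1 (log2) of each of the 9 genes within each group, beside the spread of all genes. In day 4 the points of Trib3, Ddit3, Chac1 and Asns lie at -3.43, -2.94, -2.72 and -1.94, and in the other groups the points lie between -0.25 and 0.98.

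The gap appeared in each list of ATF4 targets, while the ER chaperone list ran slightly the other way. Over all genes the median gap was 0.02, and 53.5% were higher on the second day 4 array. Of 12 ATF4-dependent regulators, 11 were higher on the first day 4 array (median gap -0.96), as were 8 of 10 synthesis enzymes (-0.81), 7 of 9 amino acid transporters (-0.53) and 11 of 11 tRNA synthetase and export genes (-0.66). The median gap was 0.12 in the ER chaperone list, 0.13 in the heat shock list, 0.22 in the double-stranded RNA and interferon list, -0.06 in the p53 list and -0.01 in the hypoxia list. Genes of eIF2 control, which lie upstream of ATF4, had a median gap of 0.02. Of the 14 pluripotency markers, 9 were higher on the first day 4 array (median gap -0.60), as were 3 of 13 differentiation markers (median gap 0.17). Esrrb had 7.35 and 4.76 and Tbx3 had 8.12 and 5.56 on the first and second day 4 arrays, in each case below every undifferentiated array. Tdgf1 (10.85 and 11.40) and Dppa3 (4.77 and 5.25) ran the other way, as did the differentiation markers Fgf5 (4.91 and 6.30) and Eomes (7.87 and 9.21). These markers thus differed between the same 2 arrays as the stress genes, and whether either bears on the other was not tested.

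Because of this gap, the change from shControl to day 4 depended on which array was kept. With both arrays 0 of the 9 members were called, where 16.4% of all genes were, and only Atf3 did not overlap with shControl, where 50.4% of all genes did not. Atf3 came closest (1.05 ± 0.37, adjusted p = 0.0904), and Ddit3 had 0.89 ± 0.73, Trib3 -0.41 ± 0.84 and Chac1 0.04 ± 0.75. Without the second day 4 array, 4 members were called and all 4 were higher at day 4, where 9.8% of all genes were called higher. Their changes were 2.36 for Ddit3, 1.77 for Atf3, 1.30 for Trib3 and 0.62 for Asns. Without the first, 3 members were called, all lower, where 8.23% of all genes were called lower. Their changes were -2.12 for Trib3, -1.32 for Asns and -0.77 for Sesn2. In these fits the single array is assumed to vary like the arrays of the other groups. The 2 day 4 arrays lay 3.43 apart in Trib3 and 2.94 apart in Ddit3, so this assumption was not met there. The calls from a single array therefore restate the gap and are not counted as results. The changes of Trib3 and Asns thus had opposite signs with the 2 arrays of 1 group. The Sesn2 fall was seen with its brightest probe set only. Its second probe set read 8.02 and 7.25 at day 4, against 7.38 and 7.02 in shControl, so the second day 4 array lay between the shControl arrays. With both day 4 arrays that probe set gave 0.44 ± 0.24, where the brightest one gave -0.36 ± 0.25.

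Some other genes of the pathway passed the test of day 4 against shControl, at shares near or below the 16.4% of all genes in most lists. The calls were 2 of 12 eIF2 control genes, 2 of 12 regulators, 1 of 10 enzymes and 1 of 9 transporters. They were 0 of 11 tRNA synthetase and export genes, 2 of 22 ER genes, 3 of 11 heat shock genes and 5 of 16 interferon genes. The p53 list lay well above that share, with 9 of 18 targets called higher and 1 lower (median 0.52). In the hypoxia list 0 of 14 were called. In the eIF2 control list, Impact, an inhibitor of GCN2, rose (1.23 ± 0.31, adjusted p = 0.0254) and Eif2ak2 fell (-1.24 ± 0.15, adjusted p = 0.000654). Among the ATF4-dependent regulators, Cebpb, a partner of ATF4, rose by 1.71 ± 0.38 and Bbc3, a cell death gene that p53 also drives, by 0.61 ± 0.15. Phgdh, the first enzyme of serine synthesis, rose by 0.70 ± 0.20, and the glutamine carrier Slc38a2 by 0.65 ± 0.15. Of the 22 ER genes, Edem1 rose (0.85 ± 0.21) and Xbp1 fell (-0.74 ± 0.14). Of 11 heat shock genes, Hspa4l rose (1.05 ± 0.18) and Hspb1 (-1.72 ± 0.32) and Hspa1b (-0.87 ± 0.20) fell. In the double-stranded RNA and interferon list 3 genes rose, among them Bst2 (1.96 ± 0.18) and Ifih1 (1.28 ± 0.23), and 2 fell, Oas1a (-2.37 ± 0.19) and Eif2ak2.

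Among the undifferentiated arrays, 1 member passed the test for the replicate number. Chac1 was higher on the second array than on the first by 0.93 in shRNA1, 0.98 in shRNA2 and 0.69 in shControl, and its arrays overlapped in both comparisons with shControl. In a model of group and replicate number over the 3 undifferentiated groups, Chac1 was called (0.86 ± 0.10, adjusted p = 0.00569), as were 0.904% of all genes. Over all 4 groups, with day 4 running the opposite way, its value was -0.03 ± 0.55 and 0 members were called, where 0.0161% of all genes were. Atf4, Ddit3, Trib3, Herpud1 and Hspa5 were also higher on the second array in all 3 undifferentiated groups, as were 22.5% of all genes, but were not called, with values of 0.34, 0.35, 0.35, 0.29 and 0.11. For Atf4 and Hspa5 this held for the brightest probe set, while the second probe set was lower on the second shControl array (-0.92 and -0.49). In the same model 8 of 14 hypoxia genes were called, all higher on the second arrays. So were the ATF4-dependent genes Stc2 (1.01), Nupr1 (0.98), Ddit4 (0.94), Gpt2 (0.77), Slc1a4 (0.68) and Jdp2 (0.58). The sources used here do not say what the replicate number stands for, and the part of the hypoxia genes in the Chac1 value was not tested.

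Genes with the most similar pattern over the 8 arrays were found for 1 gene of the ATF4 arm and 1 of the ER arm, as a description. Ddit3 was most like Stil (Pearson's r = 0.98, Spearman's rho = 0.86), Rin1 (0.96 and 0.83) and Hint3 (0.96 and 0.67). Without the 2 arrays farthest from the Ddit3 median, the first of day 4 and the second of shRNA2, r was 0.75, 0.41 and 0.64, so the likeness rested largely on those arrays. Hspa5 was most like Nin (r = 0.97, rho = 0.90), Noa1 (0.97 and 0.71) and Slc25a37 (0.97 and 0.93). Without the second shControl and the second day 4 array, r was 0.49, 0.14 and 0.83. These arrays share their group means and normalization, and such likeness says nothing of shared control.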

How the data were processed

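Values deposited by the authors were on the log2 scale, 1 a probe set; RMA is named as the tool in the submitters' processing notes, and the sources used here do not say whether it was run on all arrays at once or on which annotation build. Groups and replicate numbers came from the sample titles. Nothing in the labels says that replicates were separate cultures, so a p-value measures only how far these arrays lay apart, which can be technical. Symbols came from the platform annotation; 20351 probe sets matched a gene identifier in a RefSeq table of assembly GRCm38.p6. After removal of 64 control probe sets, each gene was represented by its probe set of highest mean. A mean per group was fitted in limma 3.58.1 (R 4.3.3, lmFit and eBayes), and p-values were adjusted with Benjamini-Hochberg over all 12393 genes, called at 0.05. Intervals are 95% intervals of that model. Named were all members, and from each list up to 4 called genes with the largest change, or the 2 with the smallest p where none was called; Nupr1, Vldlr, Atf5, Esrrb, Tbx3, Tdgf1, Dppa3, Fgf5 and Eomes were named after their gaps were seen. The members and lists were chosen with earlier results of these data known. The model was tested on simulated data. Precision is limited by the number of arrays.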

Additional observations from a re-analysis of the deposited data

How the results depend on the processing

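Members called stayed at 0 of 9 in the 4 comparisons among undifferentiated groups under each alternative run: every probe set, the average of a gene's probe sets, the dimmest genes left out, repeated quantile normalization, centring on the median, the compared groups alone, trend and robust settings, the replicate number as a block, and each array left out in turn. Calls of day 4 against shControl changed when 1 day 4 array was left out, and are not counted because a single array remained. The other exception was replicate 2 against 1, with 1 called (Chac1) in the 3 undifferentiated groups alone. For the hairpin comparisons that setting, with and without the block, was added after seeing the data. Of 855 member values, 800 kept their direction and side of the threshold, 5 passed it in the same direction and 50 changed sign. The 5 came from the fits with a single day 4 array and are not counted as results either. Leaving out 1 array gave, for day 4 against shControl, ranges of -1.32 to 0.62 (Asns), -0.58 to 0.57 (Atf4), -1.32 to 1.40 (Chac1), -0.58 to 2.36 (Ddit3), -0.30 to 0.27 (Herpud1), -0.064 to 0.24 (Hspa5), -0.77 to 0.057 (Sesn2) and -2.12 to 1.30 (Trib3). For both hairpins they were -0.043 to 0.096 (Atf3), -0.43 to 0.014 (Atf4), -0.52 to 0.17 (Chac1), -0.22 to 0.060 (Hspa5) and -0.28 to 0.066 (Trib3). For shRNA1 they were -0.22 to 0.027 (Atf3), -0.92 to 0.0040 (Chac1), -0.050 to 0.20 (Ddit3) and -0.23 to 0.050 (Hspa5). For shRNA2 they were -0.31 to 0.14 (Atf4), -0.38 to 0.60 (Chac1), -0.21 to 0.070 (Hspa5) and -0.18 to 0.50 (Trib3), and between the hairpins -0.36 to 0.035 (Asns) and -0.072 to 0.68 (Ddit3). The mean of probe sets turned Atf4 (0.11), Herpud1 (0.074) and Sesn2 (0.040) at day 4, Atf4 under shRNA2 (0.046), and Hspa5 under both hairpins (0.022), shRNA1 (0.021) and shRNA2 (0.022). At day 4, quantile normalization turned Atf4 (0.031) and Herpud1 (0.029), and centring turned Atf4 (0.054) and Herpud1 (0.049); between the hairpins quantile normalization put Hspa5 at -5.7e-05. Without day 4, replicate 2 minus 1 turned to 0.11 for Asns, 0.34 for Atf4, 0.86 for Chac1, 0.35 for Ddit3 and 0.35 for Trib3. The cause of the other turns was not tested. Over all genes, calls for both hairpins numbered 9, but 54 with the compared groups alone, 22 with the block, 241 with the block and no day 4, and 0 to 54 with 1 array left out. For shRNA1 they numbered 30, but 50 with quantile normalization, 113 with the compared groups alone, 48 with trend and robust settings, 49 with the block, 434 with the block and no day 4, and 2 to 113 with 1 array left out. For shRNA2 they numbered 0, but 2 with quantile normalization and with trend and robust settings, 40 with the compared groups alone, 99 with the block and no day 4, and 0 to 12 with 1 array left out. Between the hairpins they numbered 13, but 8 with the block, 167 with the block and no day 4, 37 without day 4 and 2 to 37 with 1 array left out. For day 4 they numbered 2033, but 3210 with every probe set, 1145 with the compared groups alone and 1102 without the second shControl array; for the replicate number they were 2, but 112 without day 4, and 0 with every probe set, the mean of probe sets, quantile normalization or centring. Deviations of same-numbered arrays correlated at 0.50 (shRNA1 and shRNA2), 0.26 (shRNA1 and shControl) and 0.23 (shRNA2 and shControl), and at -0.08 to 0.07 with day 4; with 2 numbers the samples share only a number, and the block changed no call of a member. With the block and no day 4, Chac1 had adjusted p = 0.0894 for shRNA1 (-0.46 ± 0.13) and 0.0676 between the hairpins (0.57 ± 0.13), against 0.626 and 0.839 without the block.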
